A study of Homo sapiens with 4 samples.

Results

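The 10 genes described here, TAGLN2, TWF1, CNN3, CORO1C, LASP1, PNP, ARCN1, XPO6, CAND1 and SERP1, are targets of the microRNA miR-1 known from work on muscle and cancer cells. The rule lists them by name and sets no threshold on a measured value, but the list was drawn up with earlier results of these data known. Each symbol was matched to 1 Ensembl gene identifier among the 58243 genes listed. All 10 were among the 12773 genes with enough reads to be compared. The study itself cloned target 3′ UTRs into luciferase reporters, and the full list of those reporters was not used here, so it was not checked gene by gene that these 10 lie outside it. The RNA came from 293T cells, a human embryonic kidney line, transfected with a negative control RNA or with a synthetic mimic of miR-1, miR-122 or miR-124, and the labels give 48 h of transfection for all 4 conditions. Each condition is 1 library of messenger RNA, so there is no measure of the spread between cultures, no p-value is given, and every interval is a 95% counting interval that compares libraries and not treatments.

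miR-1 is a microRNA of heart and skeletal muscle. Like other microRNAs it guides an Argonaute protein to messenger RNAs, mostly through pairing of its seed, bases 2 to 8 from its 5′ end, with matching sites in the 3′ UTR, and the bound messenger RNA is translated less and degraded faster. Several of the transcripts known to answer to it code for proteins that bind, cap or bundle actin filaments. miR-122, abundant in liver, and miR-124, abundant in neurons, have other seeds, so their libraries are 2 further references beside the control RNA.

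The sequence that links the 10 genes is the seed of mature miR-1, given here from RefSeq (GRCh38.p14) with its seed in capitals. The same mature sequence is encoded by MIR1-1 at chr20:62554351-62554372 on the plus strand and by MIR1-2 at chr18:21829015-21829036 on the minus strand.
miR-1: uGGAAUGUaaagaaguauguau

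The sites were searched as letters in 1 3′ UTR per gene, the longest in the annotation (GENCODE 44, GRCh38). An 8mer is ACATTCCA, the reverse complement of the whole seed followed by A, a 7mer-m8 is ACATTCC without that A, a 7mer-A1 is CATTCCA, and a 6mer is CATTCC. The following examples, with the match in capitals, were chosen to show each class and the genes that differed most between libraries. Each is the strand of the messenger RNA written as DNA, with 16 bases before and 2 bases after the match. All lie in the last exon of their gene, in the 3′ UTR, at chr12:43793963-43793988 (TWF1, minus), chr17:38918791-38918816 and chr17:38919115-38919140 (LASP1, plus), chr12:108647283-108647308 (CORO1C, minus), chr1:159918720-159918744 and chr1:159918606-159918630 (TAGLN2, minus), chr14:20476950-20476974 (PNP, plus), chr16:28098041-28098065 (XPO6, minus) and chr3:150544313-150544337 (SERP1, minus).
TWF1 8mer: acattaaagtaaatggACATTCCAga
LASP1 8mer, first: cccatctgtcttcagcACATTCCAcg
LASP1 8mer, second: ctcctcacatacccacACATTCCAgg
CORO1C 8mer: gcactgccatttggagACATTCCAtt
TAGLN2 7mer-m8, first: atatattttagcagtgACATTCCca
TAGLN2 7mer-m8, second: ccccatgcttactaatACATTCCct
PNP 7mer-m8: agctctttgagataatACATTCCga
XPO6 7mer-A1: tttgttgttttctcatCATTCCAtt
SERP1 7mer-A1: atcatgcttcatgtgtCATTCCAag

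Outside the match these stretches differ in composition. Within 30 bases on each side of a 7mer or 8mer, the share of A and T ran from 29.3% around the first 8mer of LASP1 to 73.3% around the 8mer of TWF1.

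All 10 genes had their lowest level in the miR-1 library. The miR-1 library is the lowest of the 4 for 30.4% of all 12773 compared genes. The ratio of FPKM (fragments per kilobase of gene span, scaled to the depth of the library) with miR-1 to FPKM with control RNA ran from 0.335 for TWF1 to 0.73 for XPO6. Its median over the 10 genes was 0.655, a log2 ratio of -0.61, against a median log2 ratio of -0.05 over all compared genes. A ratio of 0.8 or less, the threshold used for a lower gene, was met by 10 of the 10, while 18.5% of the compared genes met it, or 12.5% of the 6579 genes with at least 1000 reads over the 4 libraries. In bulk RNA of this kind, fewer cells that express a gene and less RNA of it per cell cannot be told apart.

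The miR-1 library was also the deepest, with 9452232 reads behind its FPKM values against 5887055 to 6624306 in the other 3. Reads of the 10 genes ranged from 255 for TWF1 in the miR-1 library to 3252 for TAGLN2 in the miR-124 library. The unequal depth is divided out of FPKM, and its part in the ratios was not tested further. As to the cells, 5 of the 7 genes listed for the 293T line could be compared, and PAX2 and NEFM had fewer than 200 reads in all. All 5 had a miR-1 ratio to control below 1, 3 with the whole interval below 1, from EYA1 at 0.678 (0.522 to 0.880) and LIN28B at 0.709 (0.619 to 0.813) to NEFL at 0.998 (0.927 to 1.08). Against the average of the other 2 mimics EYA1 was at 0.996 and LIN28B at 1, and the part of this list's lower levels in the ratios of the 10 genes to control was not tested. None of the 6 striated muscle markers reached 200 reads, their summed FPKM ran from 1.49 to 2.44 across libraries, and MYH7 was at 0 reads in the control and miR-122 libraries. The 5 hepatocyte markers did not exceed 23 reads in a library and the 4 blood markers did not exceed 4.

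**Figure D1:**
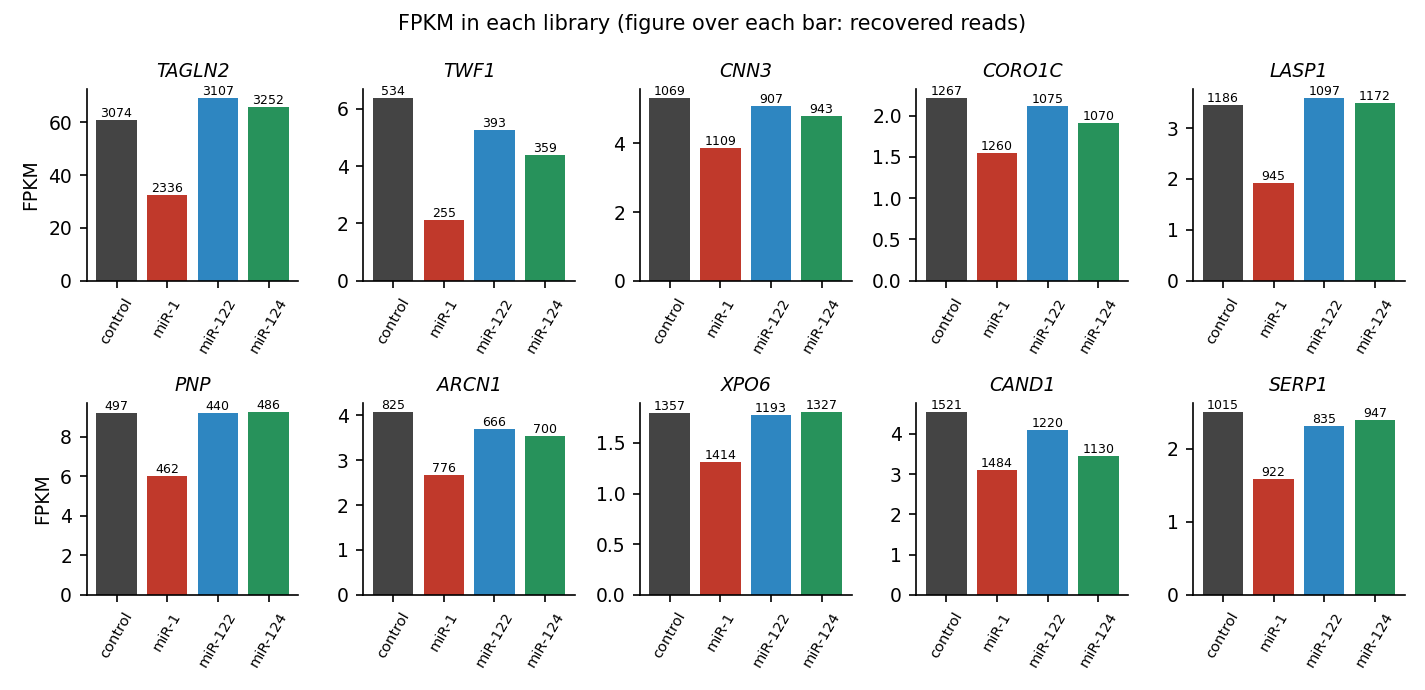
FPKM of each of the 10 genes (vertical axis, its own scale per gene, from 0) in the control, miR-1, miR-122 and miR-124 libraries, with the recovered reads written over each bar. The miR-1 bar is the lowest of the 4 in all 10 panels. Heights may not be compared between genes, because the length behind FPKM is, or lies near, the span of the gene with its introns for most genes.

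Among the actin-binding genes, TWF1 differed most. It codes for twinfilin-1, which binds actin monomers and caps filament ends. TWF1 (ENSG00000151239, chr12:43793723-43806328, minus strand) was at 6.37 FPKM in the control library and at 2.13 in the miR-1 library, whereas the miR-122 library held 5.28 and that of miR-124 held 4.39. All 3 mimic libraries were thus below the control, the miR-1 library furthest. The ratio of miR-1 to control was 0.335 (0.287 to 0.389), that of miR-122 was 0.828 (0.725 to 0.945) and that of miR-124 was 0.689 (0.601 to 0.789). When the other 2 mimics were averaged as the reference, miR-1 stood at 0.441 (0.383 to 0.511). When each gene was placed by the higher of its 2 ratios, to control and to the other mimics, TWF1 stood at place 9 of 12773 from the lowest. Its 3′ UTR of 1862 bases has the 8mer shown above and a 7mer-A1.

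TAGLN2 codes for transgelin-2, a calponin family protein on actin filaments. TAGLN2 (ENSG00000158710, chr1:159918107-159925507, minus strand) was at 60.9 FPKM in the control library and at 32.4 in the miR-1 library, whereas the miR-122 library held 69.2 and that of miR-124 held 66.0. Here the other mimic libraries were above the control, not below it as for TWF1. Relative to control it was at 0.533 (0.505 to 0.562) in the miR-1 library, while miR-122 gave 1.14 (1.08 to 1.2) and miR-124 gave 1.08 (1.03 to 1.14). The ratio of miR-1 to the average of the other 2 mimics, 0.480 (0.458 to 0.504), was therefore lower than the ratio to control. TAGLN2 has no 8mer, but its 3′ UTR of 693 bases holds both 7mer-m8 sites shown above, a 7mer-A1 and a 6mer.

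LASP1 codes for a LIM and SH3 domain protein of focal adhesions and actin-rich protrusions. LASP1 (ENSG00000002834, chr17:38869859-38921770, plus strand) was at 3.45 FPKM in the control library and at 1.93 in the miR-1 library, whereas the miR-122 library held 3.59 and that of miR-124 held 3.49. The miR-1 library stood alone, and the other 3 did not differ beyond counting error. The ratio of miR-1 was 0.558 (0.512 to 0.609) to control and 0.544 (0.504 to 0.587) to the average of the other 2 mimics. Both 8mers shown above and a 7mer-m8 begin within 408 bases of the stop codon, in a 3′ UTR of 2992 bases.

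CORO1C codes for a coronin, a protein that binds actin filaments and the Arp2/3 complex. CORO1C (ENSG00000110880, chr12:108645109-108731526, minus strand) was at 2.21 FPKM in the control library and at 1.54 in the miR-1 library, whereas the miR-122 library held 2.11 and that of miR-124 held 1.91. The order was the same as for TWF1, with smaller steps. The miR-1 library was at 0.697 (0.644 to 0.754) of control, whereas miR-122 gave 0.955 (0.879 to 1.04) and miR-124 gave 0.865 (0.797 to 0.939). It has a pair of 8mers, 111 and 147 bases past the stop codon, yet of the 10 genes only CNN3 and XPO6 had a higher ratio to control.

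CNN3 codes for the acidic calponin, calponin-3. CNN3 (ENSG00000117519, chr1:94896949-94927223, minus strand) was at 5.32 FPKM in the control library and at 3.87 in the miR-1 library, whereas the miR-122 library held 5.08 and that of miR-124 held 4.81. The miR-124 library again lay between the control and miR-1 libraries. Relative to control it was at 0.727 (0.668 to 0.792) in the miR-1 library, while miR-122 gave 0.955 (0.873 to 1.04) and miR-124 gave 0.904 (0.827 to 0.987). A single 7mer-m8, 137 bases past the stop codon, is its one site.

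The other 5 genes do not share a pathway. SERP1 codes for a small endoplasmic reticulum protein that sits beside the Sec61 translocon and stabilises new membrane proteins under stress. SERP1 (ENSG00000120742, chr3:150541998-150603228, minus strand) was at 2.50 FPKM in the control library and at 1.59 in the miR-1 library, whereas the miR-122 library held 2.32 and that of miR-124 held 2.39. Only the miR-1 library stood apart. Its ratio was 0.637 (0.582 to 0.697) to control and 0.677 (0.624 to 0.733) to the average of the other 2 mimics, and its 3′ UTR has 3 7mer-A1 sites and no 8mer or 7mer-m8.

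PNP codes for purine nucleoside phosphorylase, which splits inosine and guanosine in purine salvage. PNP (ENSG00000198805, chr14:20461992-20477094, plus strand) was at 9.22 FPKM in the control library and at 6.01 in the miR-1 library, whereas the miR-122 library held 9.18 and that of miR-124 held 9.24. The 3 libraries without miR-1 were nearly level. The ratio of miR-1 was 0.652 both to control (0.573 to 0.741) and to the average of the other 2 mimics (0.582 to 0.730). Its 3′ UTR, 488 bases, was the shortest of the 10, with the 7mer-m8 shown above and a 6mer.

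ARCN1 codes for the delta subunit of the COPI coat, which carries vesicles within the Golgi and back to the endoplasmic reticulum. ARCN1 (ENSG00000095139, chr11:118572390-118603033, plus strand) was at 4.06 FPKM in the control library and at 2.68 in the miR-1 library, whereas the miR-122 library held 3.69 and that of miR-124 held 3.53. All 3 mimic libraries were below the control, and the interval of miR-122 reached 1. The miR-1 library was at 0.659 (0.597 to 0.728) of control, whereas miR-122 gave 0.908 (0.819 to 1.01) and miR-124 gave 0.869 (0.785 to 0.963). It has an 8mer 2154 bases past the stop codon and a 7mer-m8.

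CAND1 codes for the exchange factor that lets cullin ubiquitin ligases swap their substrate receptors. CAND1 (ENSG00000111530, chr12:67269358-67319953, plus strand) was at 4.53 FPKM in the control library and at 3.10 in the miR-1 library, whereas the miR-122 library held 4.09 and that of miR-124 held 3.45. The miR-124 library came close to the miR-1 library. Relative to control it was at 0.684 (0.636 to 0.735) in the miR-1 library, while miR-122 gave 0.903 (0.836 to 0.974) and miR-124 gave 0.761 (0.704 to 0.823), and the miR-1 library was at 0.898 (0.831 to 0.971) of the miR-124 library. CAND1 has the longest 3′ UTR of the 10, 7123 bases, with 1 7mer-m8 and 2 6mers.

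XPO6 codes for exportin-6, which takes actin with profilin out of the nucleus, so it too bears on actin though it belongs to the importin beta family. XPO6 (ENSG00000169180, chr16:28097976-28211965, minus strand) was at 1.798 FPKM in the control library and at 1.313 in the miR-1 library, whereas the miR-122 library held 1.779 and that of miR-124 held 1.801. The 3 libraries without miR-1 were again level. The ratio of miR-1 was 0.730 (0.677 to 0.787) to control and 0.734 (0.687 to 0.783) to the average of the other 2 mimics, the smallest difference from control among the 10. Its sites are 2 7mer-A1.

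**Figure D2:**
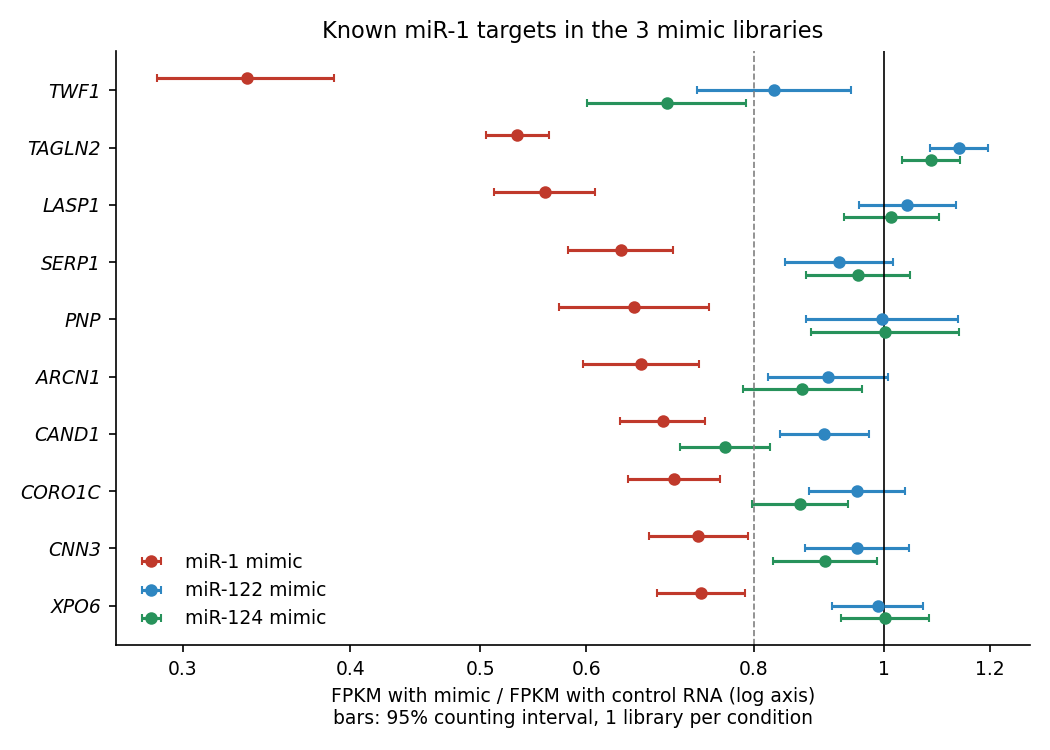
Ratio of FPKM with each mimic to FPKM with control RNA (horizontal log axis) for the 10 genes, in the order of the miR-1 ratio, with 95% counting intervals as bars; the solid line marks 1 and the dashed line 0.8. The miR-1 points run from 0.335 to 0.730 and all their intervals lie below 0.8, while TWF1 and CAND1 also have miR-124 points left of the dashed line.

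The whole counting interval of miR-1 to control lay below 1 for 10 of the 10 genes, and for 24.9% of all compared genes. With miR-122, none of the 10 reached a ratio of 0.8, which 12.5% of compared genes did. The interval lay below 1 for TWF1 and CAND1 (16.7% of compared genes) and above 1 for TAGLN2 (13.4%). With miR-124, TWF1 and CAND1 were at or below 0.8, where 16.5% of compared genes lay. The miR-124 interval was below 1 for 5 of the 10, TWF1, CNN3, CORO1C, ARCN1 and CAND1 (22% of compared genes), and above 1 for TAGLN2 (16.6%). The median log2 ratios of the 10 were -0.07 with miR-122 and -0.11 with miR-124, against -0.02 and -0.05 over all compared genes. The 3 ratios share the control library, so an error in that library would enter all of them.

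The mean of the miR-122 and miR-124 libraries gives a reference without the control, although the miR-1 library is still shared. Against it the median log2 ratio of the 10 was -0.51, with -0.02 over all compared genes. A ratio of 0.8 or less was met by 9 of the 10, all but CAND1 at 0.822 (0.773 to 0.881), and by 12.3% of compared genes. Of these 9, CNN3 at 0.782 (0.727 to 0.844), CORO1C at 0.766 (0.716 to 0.823) and ARCN1 at 0.742 (0.679 to 0.811) had intervals that crossed 0.8. Those 9 were also the ones at or below 0.8 against both references, which 7.02% of all compared genes were, or 3.8% of those with at least 1000 reads. The ratio to the other mimics was below the ratio to control for TAGLN2 and LASP1, and above it for the others. On the log2 scale the gap between the 2 ratios was widest for TWF1 (-1.58 against -1.18) and CAND1 (-0.55 against -0.28).

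**Figure D3:**
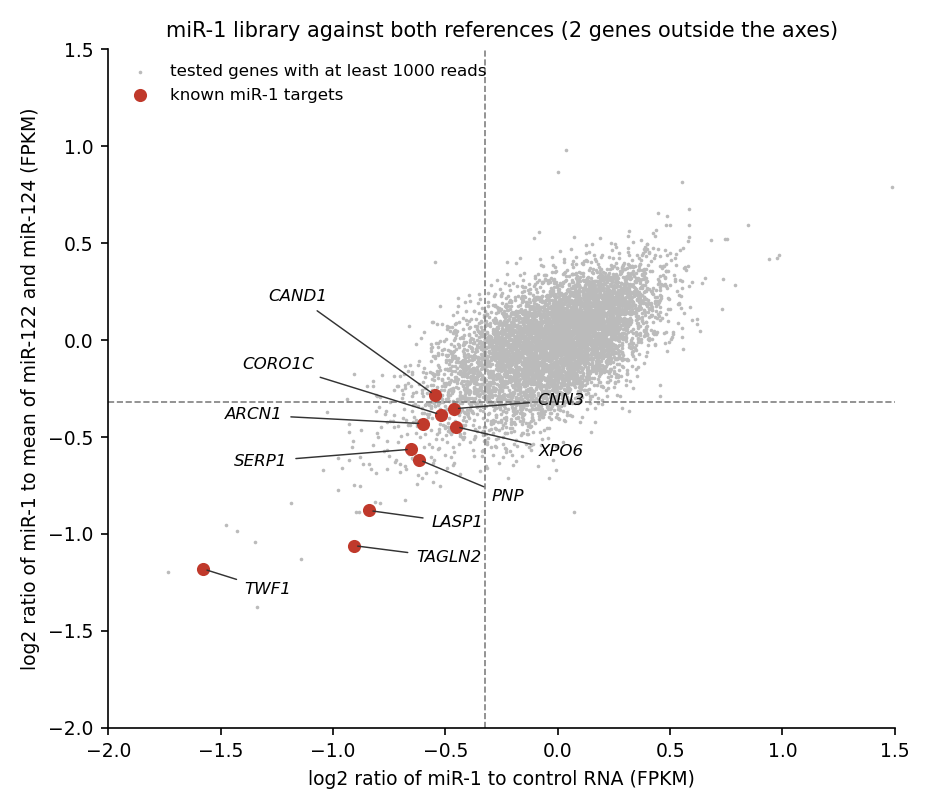
Log2 ratio of miR-1 to control RNA (horizontal) against log2 ratio of miR-1 to the mean of miR-122 and miR-124 (vertical), with the 6579 genes of at least 1000 reads in grey and the 10 miR-1 targets in red; dashed lines mark a ratio of 0.8, and 2 genes lie outside the axes. TWF1, TAGLN2 and LASP1 lie furthest down and left, and CAND1 is the red point above the horizontal line. Both axes use the miR-1 library, so the slope of the grey cloud is no result.

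The rule that chose the genes did not use their sites in the annotation. In all, 29 matches of 6 or more bases were found in the 10 3′ UTRs, 6 of them 8mers, 7 7mer-m8, 7 7mer-A1 and 9 6mers. At least 1 7mer or 8mer was present in each of the 10 genes, against 25% of the 11247 compared genes with an annotated 3′ UTR. An 8mer was present in 4 of them (TWF1, CORO1C, LASP1 and ARCN1), against 5.97%, and 2 or more 7mers or 8mers in 7, against 5.94%. At least 3 were present in TAGLN2, LASP1 and SERP1, and in 1.55% of those genes. Known targets are often found through such sites, so their presence is a description. Of the 20 7mers and 8mers, 15 lay within 500 bases of the stop codon, in 8 of the 10 genes. Those of ARCN1 and CAND1 lay further on. Short 3′ UTRs leave little room beyond that distance, with 488 bases for PNP, 562 for XPO6, 693 for TAGLN2 and 793 for CNN3. The share of such sites over all compared genes was not counted.

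**Figure D4:**
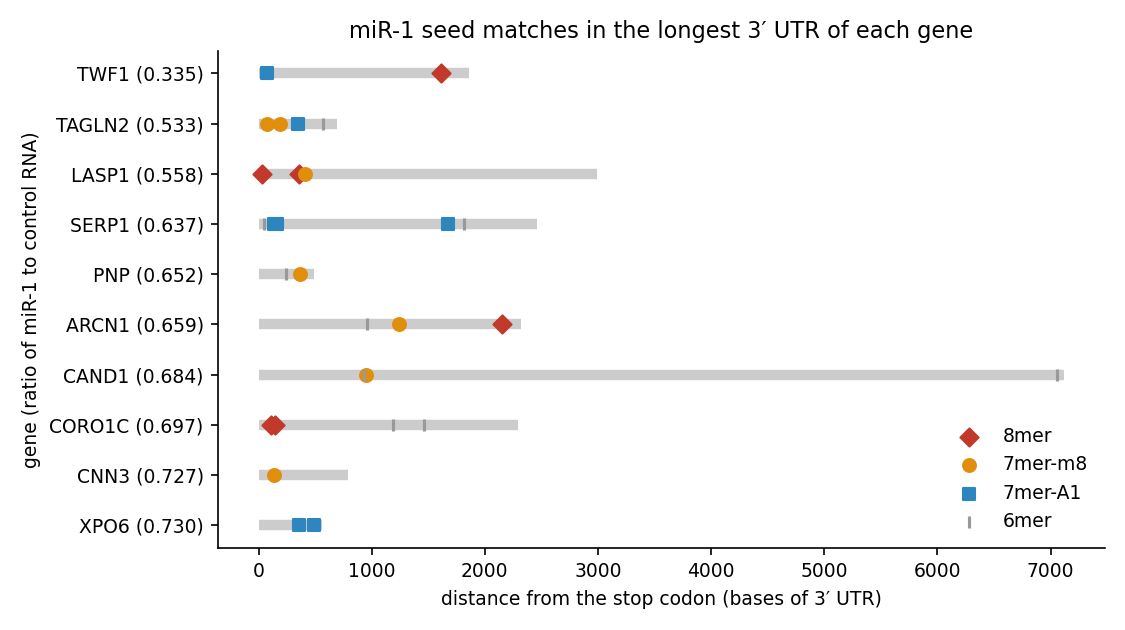
Seed matches of miR-1 along the longest 3′ UTR of each of the 10 genes, as distance from the stop codon in bases; grey bars are the 3′ UTRs, diamonds 8mers, circles 7mer-m8, squares 7mer-A1 and ticks 6mers, and the ratio of miR-1 to control is in parentheses. The genes run from TWF1 with 0.335 at the top to XPO6 with 0.730 at the bottom, and 8mers occur near the top (TWF1, LASP1) and near the bottom (CORO1C).

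Among the 10 genes the class of the best site did not order the ratios. The 4 genes with an 8mer ran from 0.335 to 0.697 and the 6 without from 0.533 to 0.730, and these ranges overlap. The 3 genes with 3 sites, TAGLN2, LASP1 and SERP1, ran from 0.533 to 0.637, below the 3 genes with 1 site, CNN3, PNP and CAND1, at 0.652 to 0.727. TWF1, the lowest of all, has 2. Over all compared genes, the median log2 ratio of miR-1 to control was -0.26 for genes whose best site was an 8mer, -0.18 for a 7mer-m8, -0.15 for a 7mer-A1, -0.10 for a 6mer and 0.00 for none. For the same miR-1 site classes in that order, the medians of miR-124 to control were -0.16, -0.13, -0.13, -0.07 and -0.01. Those of miR-122 to control were -0.09, -0.08, -0.08, -0.05 and 0.01. Against the mean of the other 2 mimics, miR-1 gave -0.13, -0.08, -0.05, -0.03 and 0.00. Those classes also differ in length, with a median 3′ UTR of 3616 bases for 8mer genes and 1032 bases for genes with no match, and the part of length in the order was not tested within classes. Every one of the 10 was below the median of its own class. TWF1 was second-lowest of the 672 genes with an 8mer, and TAGLN2 was at place 21 of the 996 with a 7mer-m8. SERP1 was at place 52 of the 1144 with a 7mer-A1, whereas CNN3 was at place 202 of 996 and CORO1C at place 133 of 672.

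A 7mer site for the seed of miR-122 was also found in 4 of the 10, LASP1, XPO6, CAND1 and SERP1. Their ratios of miR-122 to control were 1.04 (0.958 to 1.13), 0.989 (0.914 to 1.07), 0.903 (0.836 to 0.974) and 0.926 (0.844 to 1.02). Of these only CAND1 had its whole interval below 1, and TWF1, lower than any of them with miR-122, has no such site in this 3′ UTR. The share of all compared genes with a 7mer site for miR-122 is not given here, so whether 4 of the 10 is usual was not tested.

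Relatives and partners of the 10 genes were read as lists. Of 14 genes from the same families (TAGLN, TWF, CNN, CORO, LASP1, CAND and SERP), 9 could be compared, of which 1 was at or below 0.8 with miR-1 and 1 was higher by the same factor or more, as 7.56% of all compared genes were. The lowest was NEBL at 0.709 (0.571 to 0.880), a nebulin relative of LASP1, and the highest CORO7 at 1.39 (1.06 to 1.85). With miR-124 NEBL was at 0.697 (0.546 to 0.887) and CORO7 at 1.44 (1.07 to 1.95), and neither has a match for miR-1. The twinfilin TWF2, the nearest relative of TWF1, was at 0.90 (0.770 to 1.05) with a 7mer-A1 of its own. The list's median log2 ratio was -0.15, between that of the 10 targets and that of all compared genes. Against the mean of the other 2 mimics it was -0.25. There CORO1B, which has a 7mer-A1, was at 0.678 (0.621 to 0.739), lower than CORO1C at 0.766. CAND2 at 0.736, CORO1A at 0.768 and CORO6 at 0.795 were also at or below 0.8, as 12.3% of all compared genes were. The other compared relatives ran from NEBL at 0.842 to CORO7 at 1.06. Against both references 0 relatives were at or below 0.8.

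Of the 18 actins and general actin-binding genes, 2 were at or below 0.8 (18.5% of compared genes) and 1 was higher by that factor (7.56%). Their median log2 ratio was 0.01. The lowest was VCL, the adhesion protein vinculin, at 0.715 (0.650 to 0.786), the other lower one was the tropomyosin TPM3 at 0.717 (0.677 to 0.760), and the highest was the tropomyosin TPM4 at 1.54 (1.43 to 1.65). TPM4 has an 8mer and VCL has no match. TPM4 was at 1.86 of control with miR-122 and 1.04 with miR-124, and VCL at 0.838 and 0.871. Against the mean of the other 2 mimics, miR-1 was at 1.06 for TPM4 and 0.836 for VCL. The 5 actin-binding targets, TAGLN2, TWF1, CNN3, CORO1C and LASP1, had a median log2 ratio of miR-1 to control of -0.84. In the list of 18, ACTB at 0.706, TPM3 at 0.72 and ZYX at 0.77 were at or below 0.8 against the other mimics. Of all compared genes 12.3% were. TPM3 was the 1 gene of that list at or below 0.8 against both references, where 7.02% of compared genes lay.

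The partners of the other targets were read in the same way. The 7 other COPI subunits compared had 0 at or below 0.8, and ran from COPA at 0.936 to COPE at 1.35, beside ARCN1 at 0.659. COPE was at 1.43 with miR-122 and 1.31 with miR-124, and miR-1 was at 0.985 of their mean. None of the 8 cullins and shared ligase subunits, from CUL5 at 0.895 to SKP1 at 1.13, stood as low as CAND1 at 0.684. None of the 6 other exportins, from XPO4 at 0.828 to CSE1L at 1.02, stood as low as XPO6 at 0.730. Of 8 other purine salvage genes, MTAP was the one at or below 0.8, at 0.729 (0.620 to 0.856), and HPRT1 was the highest at 1.18, beside PNP at 0.652. MTAP was at 0.739 with miR-122 as well. Of 7 Sec61 and translocon-associated genes, SSR1, which has a 7mer-m8, was the one at or below 0.8, at 0.694 (0.620 to 0.777), and SEC61G was the highest at 1.23, beside SERP1 at 0.637. A 7mer or 8mer for miR-1 was present in 1 of the COPI subunits, 2 of the cullin list and 0 of the exportins. It was present in 3 of the purine salvage genes and 2 of the Sec61 list, and in all 10 targets.

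A further list held 11 other genes described as miR-1 targets, 9 of which could be compared. Of these, 5 were at or below 0.8 with miR-1 (HDAC4, MET, FOXP1, RASA1 and GJA1), where 18.5% of all compared genes lay. By that factor 0 were higher (7.56% of compared genes), and the median log2 ratio was -0.46. The lowest was GJA1, the gap junction protein connexin 43, at 0.534 (0.443 to 0.644), though with miR-122 it was at 0.586. The highest were HSPD1, the mitochondrial chaperonin, and HAND2, a heart transcription factor, both at 1.02. Against both references 3 of these 9 were at or below 0.8 (MET, FOXP1 and GJA1). That compares with 9 of the 10 genes described here and 7.02% of all compared genes. To the other mimics MET was at 0.698 (0.598 to 0.815), GJA1 at 0.746 (0.619 to 0.881) and FOXP1 at 0.791 (0.601 to 1.03). The interval of FOXP1 crossed 1. FOXP1 had 68 to 90 reads per library, fewer than the 255 that were the lowest of the 10. The difference between the lists was not tested.

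The genes whose 3 ratios to control lay nearest to the medians of the 10 were PXDN, PHAX, H3-3B, SHTN1 and SMAD4, by Euclidean distance of log2 ratios among 6569 genes with at least 1000 reads. PXDN, a peroxidase of the extracellular matrix, was nearest at a distance of 0.0356, at 0.989 FPKM with control RNA, 0.657 with miR-1, 0.916 with miR-124 and 0.925 with miR-122. Each of these 5 genes has a 7mer or 8mer for miR-1, and PHAX has 3. Such a site was present in 25% of compared genes with an annotated 3′ UTR. Of the 2102 such genes at or below 0.8 with miR-1, 906 had one. The 5 genes were picked by their ratios in these data. The likeness rests on 3 ratios from 4 libraries.

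Some of the 10 share their span with a gene on the opposite strand, and whether the counting used strand is not given in the sources used here. The reads of LASP1 and of its antisense ENSG00000265784 (ratio 0.601), and those of PNP and its antisense ENSG00000258908 (ratio 0.678), cannot be told apart on that account. IRAK4, opposite TWF1, was at 0.889 and IFT46, opposite ARCN1, at 0.849. If every read of the overlapping gene had also been counted for the target, the ratio of miR-1 to control would be 0.549 for LASP1, 0.631 for PNP, 0.612 for ARCN1 and 0.176 for TWF1. EIF2A, which lies wholly within the span of SERP1, was at 1.07, and the same subtraction would leave SERP1 at 0.123. SELENOT shares 354 bases with SERP1, and subtracting its reads left fewer than 0 in the miR-1 library, so no ratio was formed. The ratio stayed below 0.8 in each case that gave one, but for TWF1 and SERP1 the size depends on how such reads were assigned.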

How the data were processed

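Levels were taken as the FPKM values the authors deposited, 1 value per gene and library, for 4 libraries of 293T cells. The submitters' processing notes name CASAVA 1.8, HISAT2 2.0.0 and GRCh38. The program that counted reads per gene, its use of strand and its annotation are not given in the sources used here. The study's methods and the labels give different times between transfection and harvest, and the labels' 48 h is used here.

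FPKM was turned back into reads: it was taken as a whole number of reads divided by a gene length and by 1 number per library (control 6624306, miR-1 9452232, miR-122 5887055, miR-124 6465436). Of the matched genes above 0, 62.7% gave whole reads, within 0.01 of a read, with the annotated span, introns included. Where the span did not, the length was searched for, which brought the share to 99.6%. Among genes with at least 200 reads the length lay within 10% of the span for 93.9%, and the recovered reads summed to 104.5% to 104.7% of those numbers. Of the 10 genes, LASP1 and ARCN1 gave whole reads with the span and 8 with another length, which differed from the span by at most 3.04%, except for PNP with 8140 against 15102. A wrong length would change the reads and intervals but not the ratios. A gene was compared with at least 200 reads over the 4 libraries and above 0.004 FPKM in each. Ratios are of FPKM with no pseudocount, with exact (Clopper-Pearson) 95% intervals of the read shares. Reads carry no molecular identifiers, so the intervals cover counting error only. No count model was fitted, since each condition has 1 library. A gene was called lower at a ratio of 0.8 or less and higher at the inverse of that ratio or more.

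Seed matches came from GENCODE 44 and RefSeq, and the sites in the longest 3′ UTR were also checked in the canonical transcript. The 10 genes and all lists (relatives, partners, other targets, markers) were chosen with earlier results of these data known. From the list of other miR-1 targets 1 gene was left out and is not reported here. Named beside the 10 are the lowest and highest gene of each list and the 5 genes of most like pattern. LIN28B, PAX2, NEFM, MYH7, TWF2, TPM3, ACTB and ZYX were named after their values were seen. So were CORO1B, CAND2, CORO1A, CORO6, the overlapping genes and the lower genes of the other miR-1 targets. Analyses ran in Python 3.11.15 with pandas 2.3.3, scipy 1.17.1, matplotlib 3.10.9 and numpy 2.4.6, and the recovery of reads was tested on simulated data. The simulated lengths were the span or very close to it, so that test does not cover lengths further off, such as those of TAGLN2 and PNP.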

Additional observations from a re-analysis of the deposited data

How the results depend on the processing

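No paired analysis was possible because there was 1 library per condition, and for the same reason no replicate could be left out. The median log2 ratio of the 10 genes went from -0.61 to -0.45 with a pseudocount of 1, which pulls genes of low FPKM towards 0. With that pseudocount 9 of the 10 were at or below 0.8, without XPO6 at a log2 ratio of -0.27. The share of all compared genes was not counted at that setting. At a ratio of 0.67 or less, 6 of the 10 were lower against control (5.17% of compared genes) and 4 against both references (TAGLN2, TWF1, LASP1 and PNP; 1.38% of compared genes), the latter setting chosen after seeing the data. When all 22558 genes above 0.004 FPKM were kept, 29.4% were at or below 0.8, and the cause of that larger share was not tested. Against the miR-124 library alone, 7 of the 10 were at or below 0.8 (14.9% of compared genes), without CNN3, CORO1C and CAND1, and CAND1 came nearest to 0 at a log2 ratio of -0.15. With a trend over 3′ UTR length and GC content, span and reads taken off, all 10 stayed at or below 0.8 (0.354 to 0.764), where 9.91% of 11247 genes lay. Under none of these alternatives did a gene of the 10 change direction. The subtraction of overlapping reads was also chosen after seeing the data. With 1 library per condition, a difference between cultures cannot be told apart from one between treatments.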
